A study of Mus musculus with 2 samples.

Results

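The transcription factors described here steer the fate of T cells, and the question was which of their genes carried a called peak of H3K9bhb, histone H3 β-hydroxybutyrylated at lysine 9, in CD8+ T cells. They are 58 of the 21900 protein-coding genes of the RefSeq table (GRCm38.p6, which mm10 denotes), taken from a list by gene symbol and chosen by known role. A summit is the position of 1 bp that the caller gives for the top of a peak. Genes with a summit inside them or within 5 kb are said here to have a peak. By that rule 10 of the 58 genes had a peak.

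The data consist of 1 H3K9bhb chromatin immunoprecipitation (ChIP-seq) library and 1 input DNA library, both from CD8+ memory T cells of C57BL/6 spleen, each given as 70 M reads of 150 bp in pairs. The cells came from OT-I mice, which carry a transgenic T cell receptor against an ovalbumin peptide. Splenocytes received 200 ng/ml peptide together with 10 ng/ml interleukin-2 during the first 3 days, then 10 ng/ml interleukin-15 over 4 days, which drives them towards a memory-like state in culture. The cells of both libraries were treated with β-hydroxybutyrate for 3 days. There was no untreated culture and no replicate among the libraries analysed here, so a peak is a place called in treated cells, no p-value is given, and nothing below is a response to the treatment. Each summit carries a score, the authors' −log10 p or q value (the sources used here do not say which). Scores were used to rank summits within the list, where the median of the 2315 summits was 5.04 and the quartiles were 3.33 and 6.78.

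H3K9bhb is formed when β-hydroxybutyrate, a ketone body, is attached to a lysine of a histone tail, and in other settings the mark has been found at promoters. In a CD8+ T cell, receptor signalling switches on NFAT, AP-1 and NF-κB factors. Over the following days T-bet (Tbx21), Blimp-1 (Prdm1), Id2 and Zeb2 drive the effector programme, while TCF-1 (Tcf7), Lef1, Bach2, Id3 and Bcl6 preserve the capacity to form memory, on top of Runx, Ets, Ikaros and Bcl11 factors that set lineage identity. The 58 genes were grouped accordingly into 9 memory and naive-state factors, 8 effector factors, 18 activation factors, 18 lineage and identity factors and 5 others (Tox, Tox2, Maf, Mafk and Bach1).

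Peaks were found at 6 lineage factors, 3 activation factors and 1 memory factor, and at no effector factor. The lineage factors were Runx1, Ets1, Bcl11b, Elf4, Bcl11a and Elf1, the activation factors were Nfatc2, Fosl2 and Nfatc3, and the memory factor was Eomes. At 8 of the 10 the summit lay within 2 kb of a listed transcription start, and at Runx1 and Elf4 that start was an inner one, inside the annotated gene. The sequences around these starts are printed below, and a summit within 2 kb of a start can lie outside the printed bases. Each line gives the 300 bases from 250 before to 50 after a start, 5′ to 3′ on the strand of the gene, from RefSeq (GRCm38.p6), with every CG in capitals. Runx1, Bcl11b, Fosl2 and Nfatc3 have the highest scores among genes with a summit near a start. Both starts of Runx1 and of Elf4 are shown because their summits lay at the inner one, a choice made after the values were seen. Tcf7 and Lef1 stand for genes with no peak.
Runx1, inner start (chr16:92697280-92697579, minus strand): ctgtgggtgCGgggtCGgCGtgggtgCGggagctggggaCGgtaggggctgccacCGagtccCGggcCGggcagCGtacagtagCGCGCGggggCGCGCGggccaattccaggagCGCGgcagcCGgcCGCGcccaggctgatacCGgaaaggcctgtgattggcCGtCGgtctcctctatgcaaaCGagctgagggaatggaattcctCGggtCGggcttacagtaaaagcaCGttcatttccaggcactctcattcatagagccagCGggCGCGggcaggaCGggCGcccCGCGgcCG
Runx1, outer start (chr16:92826025-92826324, minus strand): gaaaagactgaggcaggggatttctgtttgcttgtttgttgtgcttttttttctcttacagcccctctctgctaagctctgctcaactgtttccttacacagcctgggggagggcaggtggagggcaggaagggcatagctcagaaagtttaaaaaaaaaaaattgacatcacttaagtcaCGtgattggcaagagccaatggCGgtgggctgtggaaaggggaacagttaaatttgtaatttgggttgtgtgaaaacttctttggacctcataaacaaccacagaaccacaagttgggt
Elf4, inner start (chrX:48454270-48454569, minus strand): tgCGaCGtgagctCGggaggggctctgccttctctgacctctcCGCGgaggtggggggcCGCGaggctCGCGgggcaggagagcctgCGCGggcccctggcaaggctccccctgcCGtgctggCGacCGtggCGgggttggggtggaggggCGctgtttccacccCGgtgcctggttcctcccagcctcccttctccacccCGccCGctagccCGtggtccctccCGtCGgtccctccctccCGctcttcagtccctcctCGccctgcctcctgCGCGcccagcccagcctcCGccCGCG
Elf4, outer start (chrX:48463083-48463382, minus strand): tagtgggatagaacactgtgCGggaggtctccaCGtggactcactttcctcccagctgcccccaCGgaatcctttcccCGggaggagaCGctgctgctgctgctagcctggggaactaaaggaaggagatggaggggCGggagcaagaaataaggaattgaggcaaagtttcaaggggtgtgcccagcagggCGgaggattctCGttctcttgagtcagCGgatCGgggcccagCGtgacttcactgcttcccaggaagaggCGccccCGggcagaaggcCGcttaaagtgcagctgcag
Fosl2 (chr5:32136222-32136521, plus strand): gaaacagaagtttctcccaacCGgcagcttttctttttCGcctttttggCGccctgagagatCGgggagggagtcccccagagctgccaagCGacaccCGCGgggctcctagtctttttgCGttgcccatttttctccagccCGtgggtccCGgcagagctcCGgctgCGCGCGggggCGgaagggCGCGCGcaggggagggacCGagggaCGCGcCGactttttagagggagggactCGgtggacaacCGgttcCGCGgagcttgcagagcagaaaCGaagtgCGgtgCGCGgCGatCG
Nfatc3, inner start (chr8:106059340-106059639, plus strand): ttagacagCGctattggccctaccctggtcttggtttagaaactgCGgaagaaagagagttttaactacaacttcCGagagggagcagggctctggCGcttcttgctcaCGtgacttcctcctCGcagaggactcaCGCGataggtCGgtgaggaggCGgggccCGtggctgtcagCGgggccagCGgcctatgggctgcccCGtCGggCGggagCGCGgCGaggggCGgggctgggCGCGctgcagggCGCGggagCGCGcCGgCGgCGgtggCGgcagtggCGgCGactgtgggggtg
Bcl11b (chr12:108003365-108003664, minus strand): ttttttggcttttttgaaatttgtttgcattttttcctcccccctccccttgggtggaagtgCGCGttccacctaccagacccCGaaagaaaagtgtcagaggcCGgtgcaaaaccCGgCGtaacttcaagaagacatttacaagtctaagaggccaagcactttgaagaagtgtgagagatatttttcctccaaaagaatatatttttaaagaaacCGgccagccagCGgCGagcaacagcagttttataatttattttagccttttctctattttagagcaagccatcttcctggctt
Tcf7, outer start (chr11:52282965-52283264, minus strand): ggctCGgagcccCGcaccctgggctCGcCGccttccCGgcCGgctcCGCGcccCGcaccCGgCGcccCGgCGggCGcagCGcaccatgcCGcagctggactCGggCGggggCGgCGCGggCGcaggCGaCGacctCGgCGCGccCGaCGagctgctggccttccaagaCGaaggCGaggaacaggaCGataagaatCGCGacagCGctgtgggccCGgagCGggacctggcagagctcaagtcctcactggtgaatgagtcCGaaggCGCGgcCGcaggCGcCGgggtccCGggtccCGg
Lef1, outermost start (chr3:131110047-131110346, plus strand): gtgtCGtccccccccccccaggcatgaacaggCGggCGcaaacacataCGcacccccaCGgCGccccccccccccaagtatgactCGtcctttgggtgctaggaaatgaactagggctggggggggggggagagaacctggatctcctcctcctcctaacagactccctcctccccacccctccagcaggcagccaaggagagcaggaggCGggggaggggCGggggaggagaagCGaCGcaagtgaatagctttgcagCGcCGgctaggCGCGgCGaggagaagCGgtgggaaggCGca

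The inner and outer starts of Runx1 differ in base composition. The inner window holds 35 CpG in 300 bases and 69.0% C and G, and its observed over expected CpG ratio, which corrects for base content, is 1.01. The outer window holds 2 CpG, with 45.0% C and G and a ratio of 0.14. Elf4 differs in the same direction by less, with 29 CpG and a ratio of 0.69 at the inner start and 14 CpG and a ratio of 0.53 at the outer start. Fosl2 and the inner start of Nfatc3 hold 32 CpG each, at ratios of 1.03 and 0.96, and their summits lie outside the printed windows. Of the printed windows, only those at the inner starts of Runx1 and Elf4 contain the summit itself. Bcl11b holds 9 CpG and 43.0% C and G, at a ratio of 0.65, and its summit lies outside the printed window. Of the genes with no peak, Tcf7 holds 45 CpG, a higher count than at any start near a summit shown, at a ratio of 1.03. The Tcf7 window, like that of Bcl11b, lies inside the annotated gene, which begins further out. Lef1 holds 18 CpG at a ratio of 0.53.

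Among the lineage factors, Runx1 had the highest score of the 58 genes. Runx1, the DNA-binding partner of Cbfb in blood cell development and T cells, is transcribed from a distal and a proximal promoter. Its summit (chromosome 16, 92697450) scored 9.18 and lay 121 bp before the inner start. The outer start was 128.6 kb away and had no summit within 2 kb. Of all summits, 11.1% scored as high or higher. By distance from the gene ends alone this summit would count as lying deep in the gene, 95.98 kb from the nearer end.

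Ets1 and Bcl11b followed in score. Ets1, an Ets-family factor needed for T cell development and survival, had a summit at 32696185 on chromosome 9 with a score of 7.996. It lay 59.9 kb and 61.6 kb from the ends of the gene, near the middle, with no other annotated gene within 5 kb. No start of Ets1 is listed, so its place relative to a start cannot be given. Bcl11b, which commits progenitors to the T cell lineage, had a summit at 108005280 on chromosome 12 with a score of 7.89. This summit was 1135 bp outside the gene and 1866 bp before the listed start, the farthest from a start among the 8.

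The other lineage factors with a peak had lower scores. Elf4, an Ets-family factor that restrains the proliferation of CD8+ T cells, is on the X chromosome, where 1.86% of protein-coding genes had a peak (18 of 966). Its summit (48454278) scored 4.03 and lay 41 bp after the inner start, 8.85 kb from the outer one. Bcl11a, known from B cell and haematopoietic progenitors, had a summit at 24079145 on chromosome 11 that scored 2.51, 1550 bp before the listed start but 2581 bp inside the annotated gene, which begins further out. Elf1, a further Ets-family factor, had a summit at 79480933 on chromosome 14 that scored 2.49, 261 bp before its start. The same summit was 335 bp inside Wbp4, a gene on the opposite strand that starts there, so the 2 genes share it. The scores of Bcl11a and Elf1 were shared by 109 and 34 summits, and 90.5% and 91.97% of all summits scored as high or higher. Shared scores were not particular to these genes: 49 summits had the Runx1 score and 12 the Elf4 score.

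Among the activation factors, peaks were at NFAT and AP-1 genes. Nfatc2, which encodes NFAT1, a calcineurin-dependent factor of receptor signalling, had a summit inside the gene at 168571297 on chromosome 2 with a score of 7.95. It was 19.1 kb after the inner start and 30.4 kb after the outer one, the only case among those with a listed start in which no start was within 2 kb. Nfatc3, its relative NFAT4, had a summit at 106059778 on chromosome 8 that scored 5.11, 188 bp after the inner start and 960 bp after the outer start. Fosl2, which encodes the AP-1 subunit Fra-2, was the gene with 2 summits. They belong to a single peak, lie 859 and 338 bp before the start (chromosome 5, 32135613 and 32136134), and scored 5.63 and 3.66.

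Eomes was the memory factor with a peak. This T-box factor supports memory CD8+ T cells and shares targets with T-bet. Its summit (chromosome 9, 118479053) scored 3.17, and 80.95% of all summits scored as high or higher. It lay 864 bp after the start of Eomes, and 321 bp from the start of the long non-coding RNA gene Gm33408, which runs the other way. The window at the Eomes start held 10 CpG at a ratio of 0.61, just above the limit of 0.6 used below for CpG-rich starts.

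**Figure D1:**
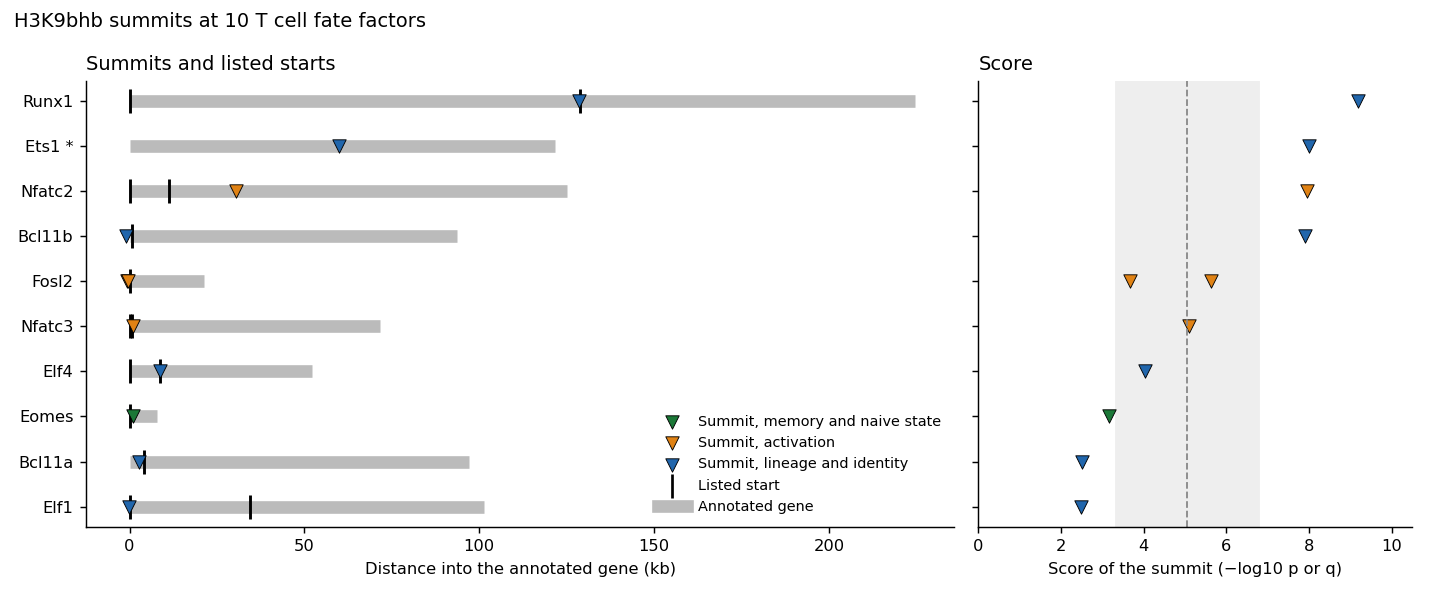
Left, the annotated span of each of the 10 genes with a peak (grey bars, kb from the end at which transcription begins), with listed starts (black ticks) and summits (triangles, coloured by class); Ets1 (asterisk) has no listed start and is drawn from its lower-coordinate end. Right, the score of each summit (−log10 p or q) with the median of all 2315 summits (5.04, dashed) and their quartiles (3.33 to 6.78, shaded); genes are ordered by their highest score, and the Runx1 and Elf4 summits sit on the inner start.

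The 10 genes are 17.2% of the 58 (95% exact interval 8.59 to 29.4), against 11.4% of all protein-coding genes, a value inside that interval. Within 2 kb of either gene end, a summit was found at 5 of the 58 (8.62%, interval 2.86 to 18.98): Bcl11b, Elf1, Eomes, Nfatc3 and Fosl2. This share was close to the 9.40% of all protein-coding genes. The ends were told apart by strand. All 5 genes had the summit at the end where transcription begins and none at the transcript end, which was also the case for 91.4% of the 1690 stranded genes with a summit near an end (1545 genes, with 103 at the transcript end and 42 at both).

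The other 5 genes had a summit inside the gene and over 2 kb from both ends, against 1.26% of all protein-coding genes. These were Runx1, Ets1, Nfatc2, Elf4 and Bcl11a. With protein-coding genes split by length into 4 bins of equal size, all 5 are in the longest bin (44.3 kb and over), where the share was 3.00%, and 30 of the 58 factors are that long. Of the 4 with a listed start, 3 had the summit within 2 kb of one (Runx1, Elf4 and Bcl11a), against 62.9% of the 224 such genes in the whole list. Most genes of this kind thus had the summit at an annotated start, here as in the whole list. All 5 factors with a summit near a gene end also had it within 2 kb of a listed start, against 90.8% of such genes. By listed starts alone, 8 of the 47 factors that have one (17.02%) had a summit within 2 kb, against 9.58% of protein-coding genes with a listed start. Whether Ets1 and Nfatc2 summits fall in an exon or an intron was not examined.

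The scores of the 5 summits inside genes had a median of 7.95 (2.51 to 9.18), and those of the 5 genes with a summit near an end had a median of 5.11 (2.49 to 7.89). The ranges overlap over most of their width. Of the 10 genes, 6 had a summit at or above the median of all summits. Runx1 alone reached the highest 10% (scores of 9.18 and over), with a score equal to the limit, where ties were kept. With the 50% of summits that scored highest, 6 of the 58 factors had a peak, against 5.82% of all protein-coding genes. With the highest 10% it was 1 of 58, against 1.27%.

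The classes differed in count, with wide intervals. Lineage factors had a peak at 6 of 18 (33.3%, interval 13.3 to 59.0), activation factors at 3 of 18 (16.7%, 3.58 to 41.4) and memory factors at 1 of 9 (11.1%, 0.28 to 48.2). Effector factors had 0 of 8, and a count of 0 among so few genes leaves room for a share of 37.5% (taken as 3 counts; the exact interval ends at 36.9%). The 5 others had none, with an interval that ends at 52.2%. The intervals of memory, effector and activation factors overlap one another and hold the 11.4% of all genes, so these counts do not set the 3 classes apart. The interval of the lineage factors lies above 11.4% but holds the 17.9% of the longest bin of genes. Gene length moved with the classes: the median span was 95.4 kb for lineage, 20.9 kb for activation, 52.0 kb for effector and 36.9 kb for memory factors. All 6 lineage factors with a peak are among the 15 of that class in the longest bin. In that bin 2 of 5 activation, 0 of 4 memory, 0 of 4 effector and 0 of 2 other factors had a peak. Of the 30 factors in that bin 8 had a peak (26.7%), against 17.9% of all genes there, and in the shorter bins there were 1 of 14, 1 of 7 and 0 of 7, beside 13.4%, 10.0% and 4.20% of all genes. The part of length in the class counts was not tested further.

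**Figure D2:**
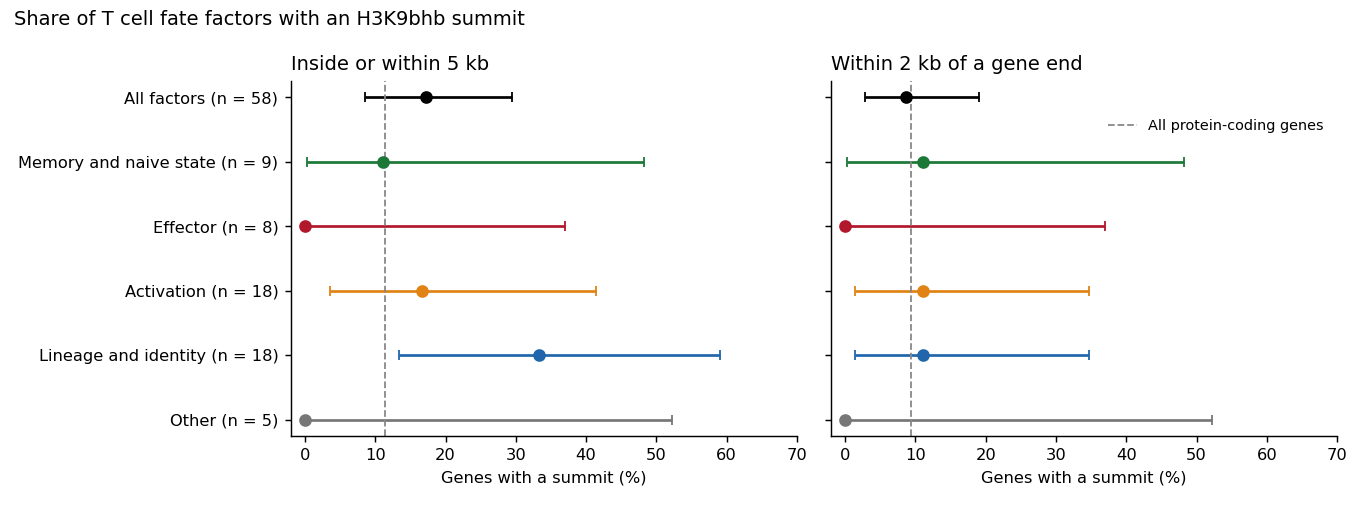
Share of genes with a summit (%) for all 58 factors and each class, by the rule of inside or within 5 kb (left) and within 2 kb of either gene end (right); points are shares, bars are 95% exact intervals that cover counting error only, and dashed lines are the shares of all protein-coding genes (11.4% and 9.40%). With the rule on gene ends, memory, activation and lineage factors have the same share of 11.1%.

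In some families only part of the members had a peak. Among Ets-family members Ets1, Elf1 and Elf4 had a peak, and Ets2 and Fli1 had none. Runx1 had a peak and Runx2, Runx3 and Cbfb had none, and in the NFAT family Nfatc2 and Nfatc3 had a peak and Nfatc1 and Nfat5 had none. Both Bcl11 genes had a peak. Of the Jun and Fos genes Fosl2 was the 1 of 5 with a peak. The 5 NF-κB subunits, the 4 interferon regulatory factors, the 4 Stat genes, the 3 Ikaros genes and both Batf genes had none. With 11.4% of all protein-coding genes having a peak, a count of 0 in families of 2 to 5 genes is near the background. Shares above it were those of Ets (3 of 5), NFAT (2 of 4), Bcl11 (2 of 2), Runx with Cbfb (1 of 4) and Jun and Fos genes (1 of 5). Families of so few genes were not tested against the background or each other.

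For the 48 factors with no peak, the nearest summit was between 14.4 kb (Tcf7) and 5296 kb (Ikzf1) away, with a median of 277.5 kb. None had one between 5 and 10 kb, so a limit of 10 kb gave the same count. The 5 nearest were Tcf7, the TCF-1 gene of memory precursors, at 14.4 kb, Junb, an AP-1 subunit, at 17.1 kb, Relb, an NF-κB subunit, at 19.7 kb, Cbfb, the partner of Runx proteins, at 36.4 kb, and Jun at 70.03 kb. In each case the summit was inside another gene: Skp1 beside Tcf7, Hook2 beside Junb, Clasrp beside Relb, B3gnt9 beside Cbfb and Mysm1 beside Jun. Some members shared a nearest summit, which was the one inside Ezh1 for Stat3 and Stat5a, and the one inside Tmed10 for Fos and Batf. Stat5b, which lies beside Stat5a, had another, the one inside P3h4. The summit nearest to Fli1 was the one inside Ets1, 152.8 kb away.

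Of the effector factors, Tbx21, which encodes T-bet, was the nearest to a summit, at 75.9 kb. Stat5a, Stat5b, Prdm1 and Id2 were 341.04, 366.3, 433.4 and 442.5 kb away, and Stat4 was 1190 kb away. Zeb2, a transcriptional repressor that promotes terminal effector differentiation, and Bhlhe40, a factor of effector cytokine production, were 4334 and 4410 kb from one. The median was 437.98 kb for effector factors, 286.6 kb for memory factors, 101.4 kb for activation factors and 210.6 kb for lineage factors. All 58 factors together had a median of 204.3 kb, against 222.2 kb for all protein-coding genes. These medians include genes with a peak, of which the effector class has none. Over genes with no peak the medians were 437.98 kb for effector, 325.7 kb for memory, 120.0 kb for activation and 707.7 kb for lineage factors. Over all protein-coding genes with no peak the median was 288.8 kb.

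Memory factors other than Eomes also had no peak. That means no called summit, and the read signal at these genes was not analysed. After Tcf7 came Id3 at 122.4 kb, Zeb1 at 256.9 kb, Stat3 at 286.6 kb and Bach2, a repressor of effector genes, at 364.8 kb. Myb, Bcl6 and Lef1 were 990.6, 1308 and 1576 kb from a summit. The 15 activation factors with no peak were 17.1 kb (Junb) to 312.4 kb (Batf) from the nearest summit.

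**Figure D3:**
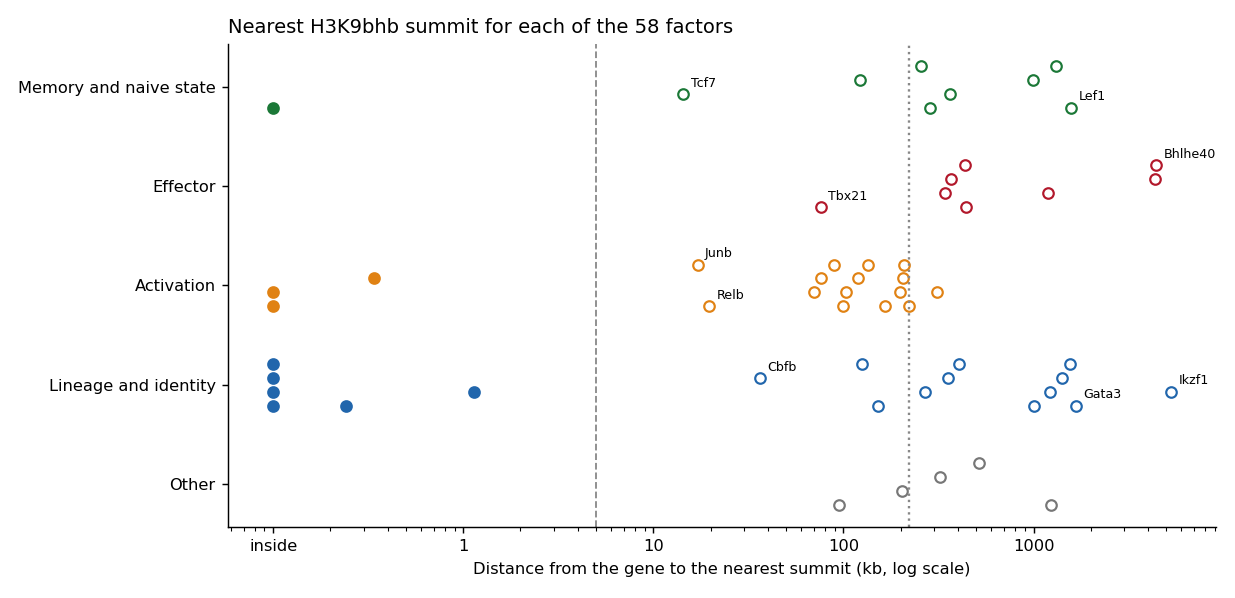
Distance from each of the 58 genes to the nearest summit (kb, log scale), by class; filled points have a peak, open points have none, and points at "inside" hold a summit. The dashed line is the 5 kb limit and the dotted line the median of all protein-coding genes, those with a peak included (222.2 kb). Beyond the dotted line lie 7 of the 8 effector factors, a class in which no gene has a peak.

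Starts with a summit within 2 kb were mostly rich in CpG. The table lists 77 starts for 47 of the 58 factors. The median CpG ratio was 0.81 over the 9 starts with a summit within 2 kb and 0.66 over the 68 without. Of the 9, 8 had a ratio of at least 0.6, against 37 of the 68. The exception was the outer start of Nfatc3, at 0.40, which is 772 bp from the inner start that lies nearer to the summit. The same held over all listed protein-coding starts, of which 9.26% had a summit within 2 kb, with a median ratio of 0.85 for those with a summit and 0.51 for those without.

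Counted the other way, 8 of the 45 CpG-rich starts of the factors had a summit within 2 kb (17.8%), against 17.1% of all CpG-rich starts. Of the 32 CpG-poor starts 1 had one (3.12%), against 2.07% of all CpG-poor starts. Both shares were close to those of starts in general. With C and G of at least 50% required as well, a choice made after the data were seen, Eomes and Bcl11b drop out and the share was 6 of 43 (13.95%), against 17.6% of all such starts. By class, 6 of 13 starts of effector factors and 5 of 7 of the others, the classes with no peak, were CpG-rich. The counts were 15 of 24 for lineage, 12 of 20 for activation and 7 of 13 for memory factors. Of all listed starts 47.7% were CpG-rich. The part of CpG content in the class counts was not tested.

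**Figure D4:**
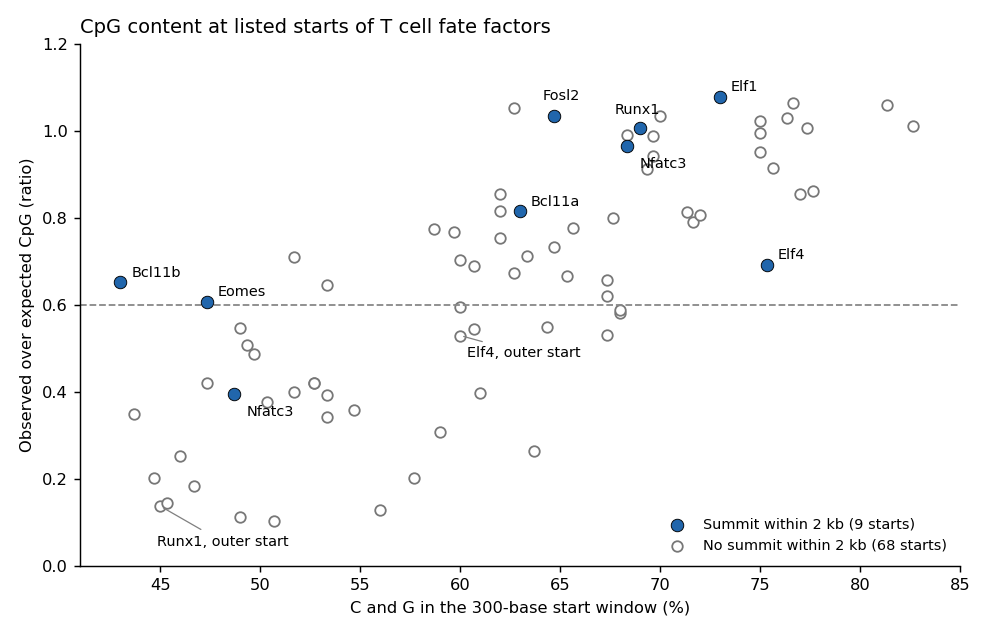
C and G (%) and observed over expected CpG (ratio) of the 300-base window at each of the 77 listed starts of the factors; filled points have a summit within 2 kb (9 starts, named) and open points have none (68 starts). The dashed line is the ratio of 0.6; the Runx1 start with the summit is at 1.01 and its outer start at 0.14.

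Short motifs in these windows, searched on both strands, were counted. None of these 8 was in all 9 windows at starts with a summit within 2 kb, called windows with a summit here. Of the 9, only the windows at the inner starts of Runx1 and Elf4 contain the summit itself. The GC box GGGCGG was in 5 of the 9 windows with a summit (55.6%) and in 44 of the 68 without. It was in 76.9% of all listed starts with a summit and in 46.2% of all listed starts. The share at the factors with a summit thus lay below that of starts with a summit in general. The TATA box TATAAA was in 2 windows with a summit and 10 without, against 5.18% of all starts with a summit and 12.6% of all starts. CCAAT was in 4 and 21, against 34.1% and 38.2%, and the NFAT core GGAAA in 7 and 42, against 51.98% and 59.9%. The Ets word CCGGAAG was in 0 and 5, against 15.9% and 11.6%, and the E-box CACGTG in 1 and 6, against 11.8% and 7.84%. The AP-1 word TGACTCA was in 0 and 3, against 2.95% and 4.66%, and the CRE word TGACGTCA in neither set, against 3.10% and 2.23%. With 9 windows, these counts are a description and were not tested. A match is a run of letters and not a bound site.

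Related genes were counted in the same way. Of 57 relatives from the same families, 8 had a peak (14.04%, interval 6.26 to 25.8), against 11.4% of all genes: Etv3 (9.27), Etv5 (5.04), Etv6 (4.54), Tcf7l2 (4.22), Elf2 (4.03), Ikzf4 (3.34), Tcf7l1 (2.77) and Prdm11 (2.51), with scores in brackets. Etv3, Etv5, Etv6 and Elf2 are of the Ets family. The other Ets-family relatives listed, Elk1, Elk3, Elk4, Gabpa, Erg and Ehf, had no peak. Elf2 resembles Runx1 and Elf4 in that its summit, 24921 bp from the nearer gene end, was 127 bp from a listed start. The Ikzf4 summit was nearer to Suox. Tcf7l1 and Tcf7l2, the relatives of Tcf7 and Lef1 in Wnt signalling, had summits 95 and 822 bp from a gene end.

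Of 31 other transcription factors of T cells, 11 had a peak (35.5%, interval 19.2 to 54.6), against 11.4% of all protein-coding genes. The 8 with the highest scores were Nr4a3 (11.6), Tcf12 (7.195), Rora (6.63), Foxo3 (6.04), Foxp1 (5.63), Tsc22d3 (5.63), Klf3 (4.93) and Egr2 (3.81). Nr4a3 and Egr2 are induced by the T cell receptor, and Tcf12 encodes the E protein HEB, a partner that Id2 and Id3 inhibit. This list was written with earlier results on Foxo1, Foxo3 and Nr4a3 known, and its count is not support for any class. None (0) of 12 defining genes of CD8+ T cells (among them Cd3e, Cd8a, Lck and Zap70) had a peak, with an exact interval that ends at 26.5% and holds the 11.4% of all genes. The count is thus near the background, and the peak list gives no check of the cell type. Of 12 factors of other blood cells, Tal1 (4.70) and Klf1 (4.26), both known from red cell precursors, had one (16.7%, interval 2.09 to 48.4), against the same 11.4%.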

How the data were processed

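The members, classes and lists were chosen with earlier results of these data known. The deposited file is a list of 2315 summits of 2204 peaks, each row a position of 1 bp with a score, the authors' −log10 p or q value. Per the submitters' processing notes, the tools were MACS2 2.1.2, Bowtie2 2.3.5, Trimmomatic 0.39 and FastQC 0.11.8, on build mm10. The sources used here do not give the caller's settings, its use of the input, or the treatment of duplicate and multiply mapping reads. Read counts were not analysed here, so how many reads lie behind each peak is unknown. Every summit was used. Gene spans and listed starts (from the 300-base promoter windows) came from RefSeq, GRCm38.p6; all 58 symbols matched, 47 with a listed start. Zeb1, Ets1, Fli1, Nfatc1, Nfkb1, Relb, Ikzf2, Ikzf3, Maf, Tox and Bhlhe40 have none in the table, and Zfp683, a gene of the other list, was not analysed here. Every member with a peak is named, with the 5 nearest of the rest and up to 8 genes of each other list by score. Ets-family relatives with no peak are named beside those with one. Other genes named for their distance were chosen after their values were seen. Intervals are exact (Clopper-Pearson, 95%), treat genes as independent and cover counting error only. The CpG ratio is the CpG count times window length over the product of C and G counts; its limit of 0.6 was chosen after seeing the data. Functions were tested on simulated summits. Alternatives covered flanks, windows, score thresholds, peak representation, gene assignment and background. Scripts ran under Python 3.11.15 with scipy 1.17.1, numpy 2.4.6, matplotlib 3.10.9 and pandas 2.3.3.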

Additional observations from a re-analysis of the deposited data

How the results depend on the processing

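The count of 10 factors with a peak was the same with flanks of 2 and 10 kb. Of all protein-coding genes, 10.66% and 12.95% had a peak with those flanks. The count was also 10 with the highest-scoring summit of each peak, beside 11.4% of all protein-coding genes. With no flank it was 7 (without Bcl11b, Elf1 and Fosl2), beside 8.71%. It was 9, beside 9.34%, when a summit counted only for the gene it lies in or whose end is nearest (without Elf1). Score thresholds moved it most, since they leave fewer summits. In the 50% of summits with the highest scores, 6 factors had a peak (3 near a gene end, 3 lineage and 0 memory factors), beside 5.82% of all genes. In the top 10%, with ties at the limit kept, 1 factor was left, beside 1.27% of all genes. It was Runx1 of the lineage class, with 0 near a gene end, 0 memory and 0 activation factors. Counting listed starts in place of gene ends gave 8 factors in place of 5, beside 9.58% of protein-coding genes with a listed start. With a window of 1 kb, 4 factors had a summit near a gene end (without Bcl11b) and 5 had summits inside only. With a window of 5 kb these counts were 6 and 4, as Bcl11a moved to the gene ends. For these windows the share of all genes was not counted. The share of all genes with a peak was 6.38% over all annotated genes, and 4.20% and 17.9% in the shortest and longest of the 4 length bins of protein-coding genes. With 1 ChIP library no replicate could be left out. No paired analysis was possible because there is a single ChIP library.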
